A study of Caenorhabditis elegans with 2 samples.

Results

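The genes described here are the neuropeptide and insulin-like peptide genes of Caenorhabditis elegans, chosen by name from the protein-coding genes of the Ensembl WBcel235 annotation. Of 19973 protein-coding genes, 140 have names that start with flp-, nlp- or ins-, and these comprise 31 flp- genes, 71 nlp- genes and 38 ins- genes. They were examined in a ChIP-seq experiment on ZTF-3, a zinc finger protein. ChIP-seq sequences the DNA that comes down with a protein and so maps where that protein sits on the genome. Worms of strain OP614 carried the unc-119(tm4063) allele together with the transgene wgIs614, which supplies unc-119(+) and ZTF-3 with a C-terminal TY1, EGFP and 3xFLAG tag, and an anti-GFP antibody was used. The 2 samples, biological replicates 4 and 5, were both whole young adults of mixed sex at 58 h, synchronised by starving L1 larvae after bleaching. Both carry the same alleles and the same transgene, there is no second condition, and an untagged strain was not analysed here. In whole animals, binding in a few neurons and weak binding in many cells cannot be told apart.

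The peptide genes encode precursors that are cut, trimmed and often amidated inside dense-core vesicles and then released as signals. The flp- genes encode FMRFamide-related peptides, the nlp- genes a mixed group of other neuropeptides and antimicrobial peptides, and the ins- genes insulin-like peptides. Many insulin-like peptides act on the single insulin receptor of the worm, DAF-2, some as agonists and some as antagonists. Most neuropeptides act on G protein-coupled receptors, and most of these genes are expressed in small sets of neurons, the intestine or the epidermis.

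For each replicate, and for both pooled, the authors deposited 30000 candidate regions in which peaks and background are mixed. A much shorter list of thresholded regions holds those kept by the irreproducible discovery rate, which measures how well ranks repeat between replicates. The regions in it are the strongest of the pooled list, and as many of the strongest regions of each replicate are called its top tier here. Signal is the authors' value for the strength of a region. How it was computed is not given in the sources used here. It describes and ranks regions within a list only, and the median was 28.0 in the pooled list, 22.6 in replicate 4 and 9.86 in replicate 5. A gene was counted when a summit, the highest point of a region, lay from 1000 bp upstream to 200 bp downstream of one of its start sites, and its strongest such region was taken. No read counts come with the lists, so depth is unknown. Shares carry exact (Clopper-Pearson) 95% binomial intervals, which run over genes and cover counting error only.

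Sequence is shown for examples of the stronger regions at and near these genes. That at ins-39 is the one thresholded region with its summit in a promoter window. Those at ins-13 and nlp-76 are thresholded regions outside the window whose nearest protein-coding start site is that of the peptide gene, at ins-13 the stronger of a pair. Those at flp-8 and nlp-25 are regions in the window below the threshold. All are on WBcel235 (ce11) and printed 5′ to 3′ on the strand of the peptide gene. Capitals mark ACGCAG and ACACAC, which are 2 of the 3 6-mers searched on both strands. The third, AGAGAC, was in none of the 5 stretches. The stretches are ins-39 at X:1344900-1345198 on the minus strand, ins-13 at II:5543660-5543833 on the minus strand, nlp-76 at X:12665116-12665314 on the minus strand, flp-8 at X:14880660-14880810 on the plus strand and nlp-25 at V:19605579-19605729 on the plus strand.
ins-39: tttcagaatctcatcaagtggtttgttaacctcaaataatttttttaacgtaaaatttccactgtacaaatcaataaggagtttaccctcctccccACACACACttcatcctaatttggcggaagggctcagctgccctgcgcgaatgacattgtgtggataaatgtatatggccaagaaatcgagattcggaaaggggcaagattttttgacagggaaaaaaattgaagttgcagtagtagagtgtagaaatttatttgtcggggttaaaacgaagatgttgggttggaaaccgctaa
ins-13: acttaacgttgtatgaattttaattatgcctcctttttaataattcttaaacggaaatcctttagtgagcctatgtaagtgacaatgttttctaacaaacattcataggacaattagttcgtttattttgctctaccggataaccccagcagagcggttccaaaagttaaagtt
nlp-76: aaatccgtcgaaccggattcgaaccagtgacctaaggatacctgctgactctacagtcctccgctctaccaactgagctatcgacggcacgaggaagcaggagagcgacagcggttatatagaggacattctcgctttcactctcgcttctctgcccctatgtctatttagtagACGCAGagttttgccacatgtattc
flp-8: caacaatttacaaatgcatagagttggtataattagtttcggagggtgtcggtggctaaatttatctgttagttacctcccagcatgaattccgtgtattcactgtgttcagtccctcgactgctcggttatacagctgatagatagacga
nlp-25: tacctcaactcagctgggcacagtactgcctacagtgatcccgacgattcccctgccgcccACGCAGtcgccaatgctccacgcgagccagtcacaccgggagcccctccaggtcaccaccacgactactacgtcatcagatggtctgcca

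The ins-39 stretch held 2 overlapping copies of ACACAC in a short CA run, with a GC content of 39.5%. The stretch near nlp-76 held 1 ACGCAG and, at its start, a whole tRNA gene that runs on the opposite strand. The ins-13 stretch is the entire deposited region of 174 bp and held none of the 6-mers. It overlaps the 3′ end of sls-2.2, an SL2 spliced leader RNA gene. The nlp-25 stretch lies in a coding exon of kcnl-1, a neighbouring potassium channel gene, and had a GC content of 61.6%.

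Candidate regions were about as frequent at the peptide genes as at protein-coding genes in general, and nearly all were weak. A pooled candidate summit lay in the promoter window of 53 of the 140 genes (37.9%, 95% interval 29.8 to 46.4%), against 7097 of all 19973 protein-coding genes (35.5%), which include the peptide genes. The flp- genes had 13 of 31 (41.9%, 24.5 to 60.9%), the nlp- genes 30 of 71 (42.3%, 30.6 to 54.6%) and the ins- genes 10 of 38 (26.3%, 13.4 to 43.1%). The intervals of the 3 families overlap, and each includes the share over all genes.

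Only ins-39 had a thresholded summit in its promoter window. That is 1 of the 53 peptide genes with a candidate (1.89%, 0.0478 to 10.1%), against 309 of the 7097 protein-coding genes with a candidate (4.35%). Over every gene the shares are 1 of 140 (0.714%, 0.0181 to 3.92%), against 309 of 19973 (1.55%). Both intervals include the share over all genes, so a share below the background was not detectable with this number of genes. No flp- gene and no nlp- gene had a thresholded summit in its window, which were 0 of 13 and 0 of 30 with a candidate and allow shares of up to 24.7% and 11.6% (upper ends of the 95% intervals).

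The strength of the regions was close to that at other genes. Among the 53, the median pooled signal of the strongest region was 27.6 (95% interval 24.8 to 34.5), against 30.1 over the 7097 genes. The middle of the distribution, between the lower and the upper quartile, ran from 24.1 to 38.1 at the peptide genes and from 24.4 to 39.4 at all genes. Divided by the quartiles of all genes, lowest to highest, the peptide genes numbered 17, 14, 11 and 11. By family the medians were 26.8 for flp- genes, 27.7 for nlp- genes and 32.7 for ins- genes. The flp- and nlp- medians lay below the median of the whole pooled list, 28.0, and the ins- median above it. Their 95% intervals were 22.9 to 37.5, 24.3 to 35.7 and 24.1 to 49.0, and each includes 28.0. The range was 20.4 to 159, but the second highest value was 53.5 and the weakest thresholded region anywhere had 74.7. No peptide gene had its strongest region between the end of the thresholded list and pooled rank 1000, 6 ranked within 2000, and 34 ranked past 10000. Of the 7097 genes, 514 had a region within rank 1000, 309 of them thresholded. The median rank was 15486 at the peptide genes and 12149 over the 7097 genes, so most of all genes with a candidate also ranked past 10000.

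**Figure D1:**
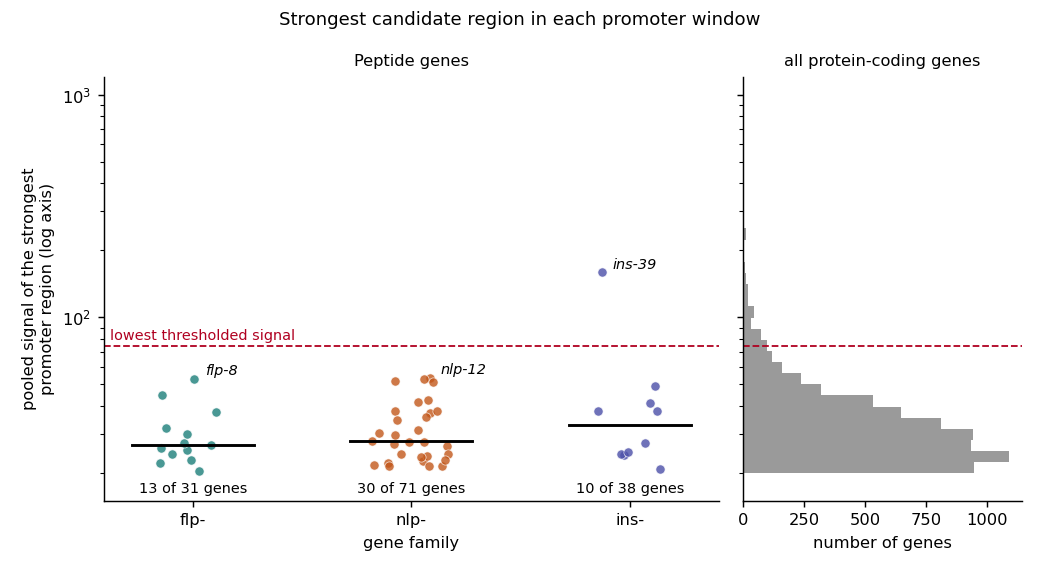
Pooled signal (log axis) of the strongest region in the promoter window, 1 point per gene with a candidate, for flp-, nlp- and ins- genes on the left (bars are medians of 26.8, 27.7 and 32.7; horizontal jitter has no meaning) and as a histogram of all 7097 protein-coding genes with a candidate on the right. Only ins-39, at 159, lies above the dashed line at the lowest thresholded signal, 74.7.

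The share with a candidate differed among chromosomes without a common direction. It was 8 of 19 peptide genes on chromosome I (42.1%, against 37.7% of all genes there), 11 of 28 on II (39.3%, against 34.2%) and 4 of 17 on III (23.5%, against 40.3%). It was 6 of 19 on IV (31.6%, against 34.3%), 12 of 23 on V (52.2%, against 30.7%) and 12 of 34 on X (35.3%, against 40.6%). On V, where the peptide genes stood highest above all genes, the interval ran from 30.6 to 73.2%. On III, where they stood lowest, it ran from 6.81 to 49.9%. Both include the share over all genes of that chromosome.

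Among the ins- genes, ins-39, which encodes an insulin-like peptide, stood apart. Its region, X:1344827-1345270, had a pooled signal of 159 (rank 66) and a −log10 q of 2.48, the highest value in that list. Other regions shared that −log10 q, among them the strongest ones near ins-13 and nlp-40. The summit of the ins-39 region lay 628 bp upstream of the start site, in an intergenic stretch. In replicate 4 the signal was 124 (rank 59, summit 603 bp upstream) and in replicate 5 it was 24.8 (rank 524, summit 669 bp upstream). Both replicates thus placed the region in their top tier, well inside it in replicate 4 and at its lower edge in replicate 5. A second, weaker pooled region had its summit 832 bp upstream, with a signal of 57.2 (rank 1229). The gene, X:1343758-1344421 on the minus strand, is isolated. On the upstream side the nearest annotated gene is a pseudogene 6132 bp away, and its own start site was the nearest protein-coding one to the summit.

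The insulin-like gene ins-13 had the strongest region near any peptide gene, but on the far side of the gene. Its start site was the nearest protein-coding one to a thresholded summit at II:5543660-5543833 with a signal of 244 (rank 15), 1137 bp downstream of that start site. The same place ranked 18 in replicate 4 (signal 169) and 9 in replicate 5 (signal 80.4). A second thresholded region, II:5543706-5544149, had its summit 936 bp downstream and a signal of 101 (rank 234). Both summits lay between sls-2.2 and sls-2.3, SL2 spliced leader RNA genes whose product is spliced onto downstream genes of operons. The stronger summit was 20 bp beyond the 3′ end of sls-2.2, and the weaker one 221 bp from sls-2.2 and 236 bp from sls-2.3. Which of these 3 genes the regions bear on was not tested. Inside its own promoter window, ins-13 had a region 555 bp upstream with a signal of 49.0 (rank 2165), in a noncoding exon of acdh-2, an acyl-CoA dehydrogenase family gene that overlaps it. That place ranked 1125 in replicate 4. In replicate 5 no region held the summit, and the strongest in the window ranked 14072.

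The pooled regions of the other ins- genes were weaker. At ins-19 the strongest region had a signal of 41.3 (rank 4144) and its summit 817 bp upstream, inside a coding exon of the neighbouring insulin-like gene ins-31. The signal was 38.2 at ins-27, 38.1 at ins-29, 27.3 at ins-4, 24.8 at ins-33 and 24.2 at ins-3. INS-4 is an agonist of DAF-2 that promotes reproductive growth. In neither replicate did any of these 6 genes have a region in the window that ranked within 2000, and ins-33 was in the window of neither. The gene ins-30 had no pooled candidate, but in replicate 4 a region 143 bp downstream of its start site had a signal of 40.3 (rank 1868), and in replicate 5 its strongest ranked 14618. The 14 ins- genes with no candidate summit in the window in any list include ins-1, ins-6 and ins-18. INS-6 is a DAF-2 agonist, and INS-1 and INS-18 act as antagonists. The gene ins-7, another agonist, was listed in both replicates, at ranks 17581 and 27669, but not in the pooled list. The insulin-like gene daf-28, which the name rule does not take, had a signal of 24.8 (rank 20102) with the summit 195 bp downstream of a start site, in its own coding exon.

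**Figure D2:**
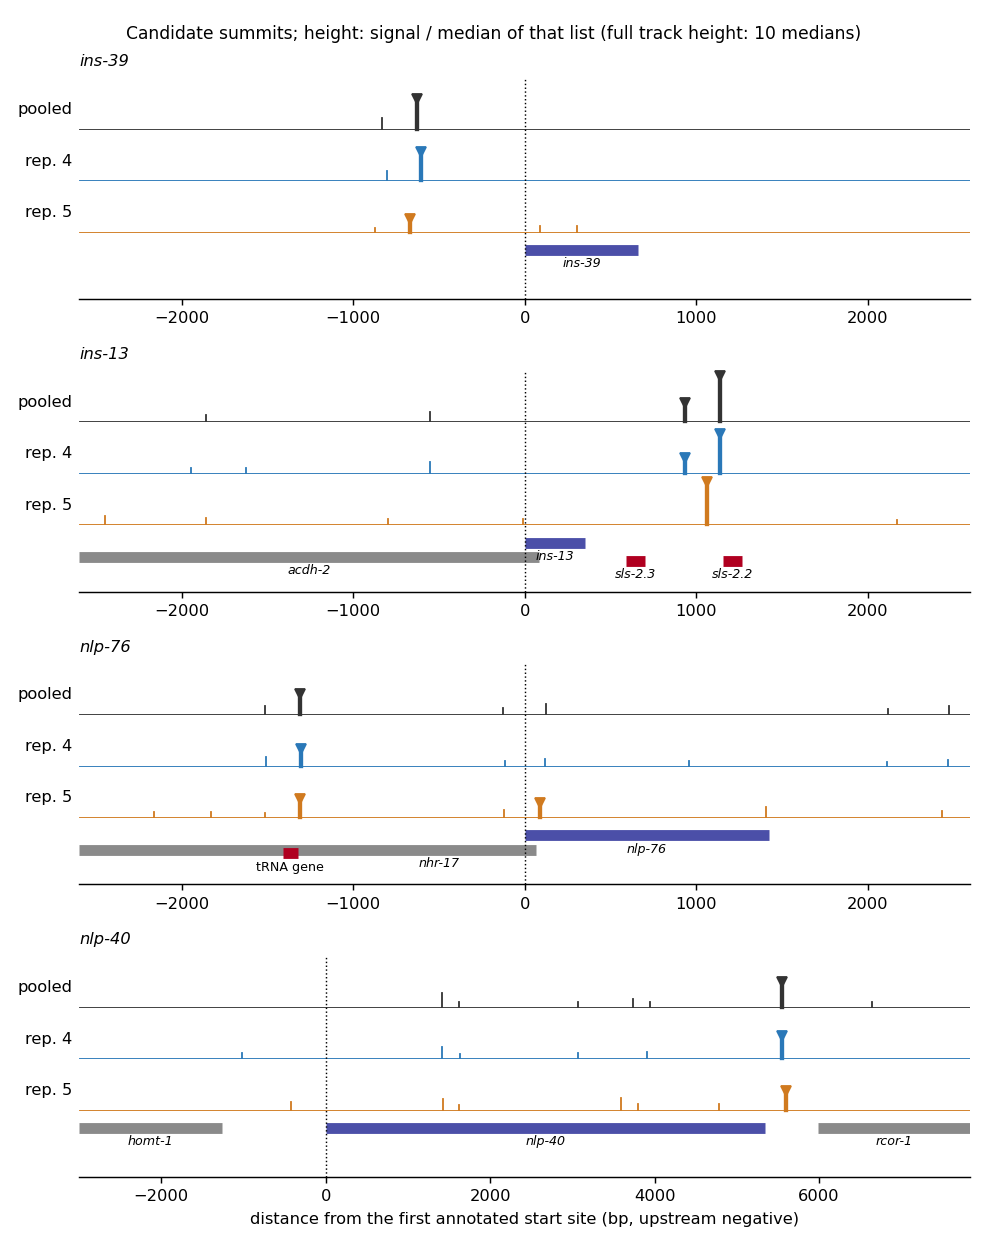
Candidate summits around ins-39, ins-13, nlp-76 and nlp-40 by distance from the first annotated start site (bp, upstream negative), in the pooled list and each replicate. Heights are signal divided by the median of that list, full track height being 10 medians, and thick marked bars are thresholded in the pooled list or in the top tier of a replicate. Purple bars are the peptide genes, grey bars other protein-coding genes and red bars small RNA genes. The tallest ins-39 summits stand upstream of an isolated gene, whereas the tallest summits near ins-13 stand beside sls-2.2.

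Among the nlp- genes, nlp-76 was the only one with a region of a replicate's top tier in its window. It had a region 125 bp downstream of its start site with a pooled signal of 53.1 (rank 1595). That place ranked 6890 in replicate 4 (signal 28.9) and 403 in replicate 5 (signal 26.5), so its high rank rests on replicate 5. Beyond the window, 1312 bp upstream, lay a thresholded region, X:12664993-12665436, with a signal of 109 (rank 165) that ranked 278 in replicate 4 and 148 in replicate 5. Its summit was in an intron of the nuclear hormone receptor gene nhr-17, which overlaps nlp-76, and 13 bp from the 5′ end of a tRNA gene.

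The gene nlp-40 encodes a peptide that the intestine releases to time the defecation motor programme. It has 3 annotated start sites on chromosome I. A thresholded region at I:16818-17261, with a signal of 132 (rank 100), had its summit 203 bp past the 3′ end of the gene and 1937 bp from its nearest start site, still the closest protein-coding start. That summit lay between the 3′ end of nlp-40 and that of rcor-1, a gene on the opposite strand that ends at I:17484. Which gene the region bears on was not tested. The region ranked 105 in replicate 4 and 137 in replicate 5. Within the window, 129 bp downstream of a start site and in an intron, the signal was 42.6 (rank 3696). The pooled summit there lay in a region that ranked 6743 in replicate 4 and 804 in replicate 5. A further region inside the gene, in an intron 1297 bp downstream of the nearest start site, had a signal of 71.3 (rank 610) and ranked 1049 in replicate 4 and 994 in replicate 5. As at ins-13, the strongest region was past the end of the gene, while the signal in the window was above the upper quartile of all genes with a candidate, 39.4.

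The remaining leading nlp- genes had signals of 37.8 to 53.5. At nlp-12, which encodes a cholecystokinin-like peptide made by a stretch-sensing neuron, the signal was 53.5 (rank 1556), the highest of the family. Its summit lay 965 bp upstream of nlp-12 but 26 bp from the start site of emr-1, the emerin gene, whose window also holds it. The pooled summit lay in a region that ranked 1216 in replicate 4 and 15832 in replicate 5. At nlp-25 the signal was 52.0 (rank 1732), 526 bp upstream in the kcnl-1 exon shown above, and it ranked 2418 in replicate 4 and 1007 in replicate 5. At nlp-35 the signal was 51.3 (rank 1828), with rank 1615 in replicate 4 and no region in the window in replicate 5. The antimicrobial peptide genes nlp-29, which is induced in the epidermis by infection and wounding, and nlp-33 had signals of 38.1 and 41.6. The gene nlp-71 had 37.8, with the summit in its own coding exon between its start sites.

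The flp- genes were led by flp-8, at 53.0 (rank 1604), with its summit 684 bp upstream. It ranked 1280 in replicate 4, whereas the region holding the summit ranked 20266 in replicate 5, where another summit in the window ranked 3914. At flp-34 the signal was 44.9 (rank 3007), 80 bp downstream of a start site in its coding exon, with ranks of 2618 in replicate 4 and 25758 in replicate 5. At flp-2, whose peptides promote arousal of locomotion, it was 37.5, also in a coding exon. The others among the leading 8 were flp-32 at 31.9, flp-9 at 29.9, flp-4 at 27.2, flp-33 at 26.8 and flp-25 at 25.9. All but flp-8, flp-34 and flp-2 lay past rank 10000 of the pooled list. The 8 flp- genes with no candidate summit in the window in any list include flp-11, which acts in sleep, and flp-21, which encodes a ligand of the receptor NPR-1. Another NPR-1 ligand gene, flp-18, was listed in both replicates at ranks 27371 and 25867 but not in the pooled list.

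Agreement between replicates in rank was loose. In replicate 4, 57 of the 140 genes had a candidate summit in the window (40.7%, against 35.6% of all genes), and in replicate 5 it was 54 (38.6%, against 35.8%). The flp- genes numbered 17 in replicate 4 and 13 in replicate 5, the nlp- genes 25 and 26, and the ins- genes 15 and 15. Of the replicate 4 genes, 1 had a region of that list's top tier in the window (1.75%), against 303 of 7117 protein-coding genes (4.26%). In replicate 5, ins-39 and nlp-76 had one (2 of 54, 3.70%), against 283 of 7155 (3.96%). Only ins-39 was in the top tier of both, 1 of 140 peptide genes, against 151 of 19973 protein-coding genes, a similar share. Across the 28 peptide genes with a candidate in both replicates, Spearman's rho of the ranks was 0.240, against 0.417 across 3989 genes. Each rank is that of the strongest region in the window of its own list, so the 2 ranks of a gene can belong to different places. The pooled summit lay in a region of both replicates at 19 of 53 genes (35.8%, against 40.4% of all genes with a candidate). These are descriptions across genes that share both libraries, and genes are not independent replicates.

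Of the 53 genes with a pooled candidate, 23 had a candidate in the window of both replicates too (43.4%, against 52.3% of all genes with a candidate). A further 21 were also in replicate 4 alone (39.6%, against 30.4%), 7 in replicate 5 alone (13.2%, against 12.6%) and 2 in neither (3.77%, against 4.68%). The pooled list thus leaned on replicate 4 at the peptide genes as it did over all genes. Of the 87 genes with no pooled candidate, 32 were listed in at least 1 replicate, namely 8 in replicate 4 alone, 19 in replicate 5 alone and 5 in both (36.8%, against 27.3% of all genes with no pooled candidate). The other 55 were in no list (39.3% of the 140, against 46.9% of all genes). They include 8 flp- genes, 33 nlp- genes and 14 ins- genes.

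**Figure D3:**
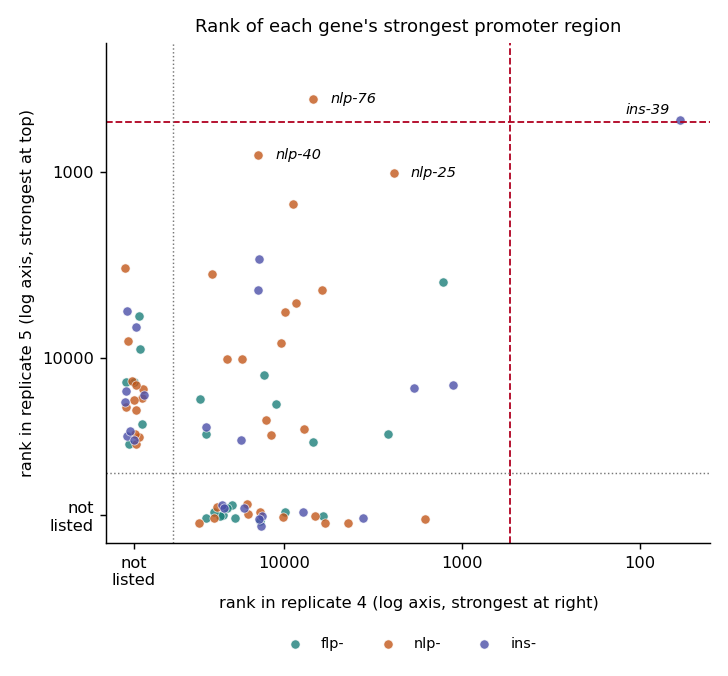
Rank of the strongest region in the promoter window in replicate 4 (x) and replicate 5 (y), both log axes with the strongest at the right and top. Points are the peptide genes with a candidate in the window of at least 1 replicate, and the 2 in the pooled list alone are not drawn. Genes absent from 1 replicate sit in the strips at the left and bottom with jitter, and dashed lines mark the end of the top tier. Only ins-39 lies beyond both lines, at ranks 59 and 524, and nlp-76 beyond the replicate 5 line alone.

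The strongest regions lay on both sides of the start site and in several kinds of sequence. The window reaches 1000 bp upstream but only 200 bp downstream. For its length the downstream part held the most summits, at the peptide genes and over all genes. Summits were intergenic at 26 of the 53 genes (49.1%, against 46.4% over all genes with a candidate), in a coding exon at 16 (30.2%, against 26.7%), in an intron at 7 (13.2%, against 18%) and in a noncoding exon at 4 (7.55%, against 8.88%). Of the 16 in coding exons, 12 were in the gene's own exon and 4 in that of a neighbour, namely kcnl-1 for nlp-25, ins-31 for ins-19, K04H4.5 for flp-25 and exos-3 for nlp-4. None of these 16 summits was thresholded. Summits lay downstream of the start site at 16 genes (30.2%, against 21.9%), of which 11 were nlp- genes, 3 flp- genes and 2 ins- genes. They lay within 500 bp upstream at 19 (35.8%, against 43.9%) and farther upstream at 18 (34.0%, against 34.1%).

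**Figure D4:**
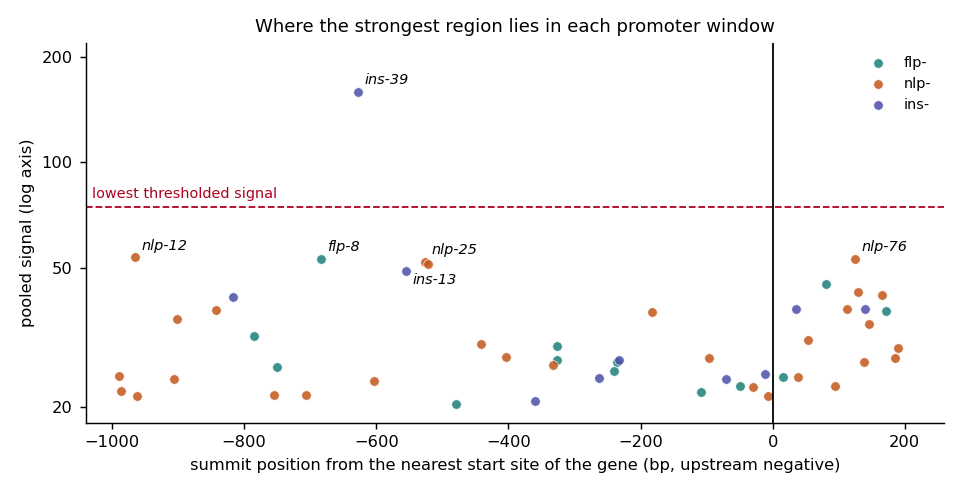
Position of the strongest pooled summit from the nearest start site of the gene (bp, upstream negative) and its signal (log axis), for the 53 peptide genes with a candidate, coloured by family. Summits lie on both sides of the start site at the vertical line, 16 of them downstream, where the window spans only 200 bp. Only ins-39 is above the dashed line at 74.7.

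Most of these regions lay closer to a start site of the peptide gene than to that of any other gene, which the choice of window favours. The gene's own start site was the nearest for 48 of 53 (90.6%, against 83.7%), and the region was in the window of another gene at 5 (9.43%, against 21.9%). Those 5 were nlp-12 with emr-1, nlp-33 with T19C4.24, ins-29 with ZC334.13, ins-14 with F41G3.5 and nlp-4 with ndub-10. More than 1 region lay in the window of 9 genes (17%, against 25.8%). A tRNA, snoRNA, snRNA or miRNA gene lay within 500 bp of the summit at nlp-62 and flp-23 alone (3.77%, against 3.58%). The median GC content of the 101 bp at the summit was 42.6%, against 41.6%.

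The 3 6-mers were chosen from earlier results on the thresholded regions of these data and so are not independent of them. Within 101 bp at the summit, each was in 1 of the 53 strongest regions of the peptide genes (1.89%), AGAGAC at ins-4, ACGCAG at nlp-25 and ACACAC at flp-34. In thresholded regions AGAGAC was in 18.7%, ACGCAG in 14.0% and ACACAC in 17.6%. Over the strongest regions of all genes the shares were 6.85% for AGAGAC, 4.97% for ACGCAG and 6.38% for ACACAC, and over all pooled candidates 5.31%, 3.45% and 5.42%. The interval at the peptide genes includes the shares over all genes and over all pooled candidates, so a lower share was not detectable. The ACACAC copies in the ins-39 stretch are not wholly within its 101 bp. A match is a description of the letters and not a binding site.

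With the promoter window included, 6 peptide genes had a thresholded summit within 2000 bp of a start site on either side (4.29% of 140, against 2.86% of all genes). Within 5000 bp it was 8 (5.71%, against 5.69%). Besides ins-39, ins-13, nlp-76 and nlp-40, the 6 include ins-17 and ins-37. The summit 1912 bp from ins-17 had a signal of 170 (rank 56) but lay 258 bp from the start site of rps-1, a ribosomal protein gene. The one 1604 bp from ins-37 had 78.2 (rank 464) and lay 872 bp from the start site of F08G2.5. Those added within 5000 bp were nlp-46, with a summit 3886 bp upstream, and nlp-68, with one 4840 bp downstream. The nearest protein-coding start sites to these summits were those of T28H10.2, at 2778 bp, and of hpd-1, at 1203 bp. The median distance from a peptide gene to the nearest thresholded summit was 85806 bp, against 75776 bp over all genes.

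Many insulin-like genes sit in tandem, so genes within 10000 bp of each other were grouped. In all, 40 of the 140 genes fell in 11 clusters, made up of 25 ins- genes, 12 nlp- genes and 3 flp- genes. A pooled candidate lay at 17 of these 40 (42.5%), against 36 of the 100 outside clusters (36.0%) and 35.5% of all protein-coding genes. Whether these shares differ was not tested. The antimicrobial peptide genes nlp-27 to nlp-31 and nlp-34, 6 genes within 10946 bp of chromosome V, had a pooled candidate at 4, namely nlp-27, nlp-29, nlp-31 and nlp-34. The 7 ins- genes of chromosome I from ins-24 to ins-30 had it at 2, ins-27 and ins-29. The 6 ins- genes of chromosome II with ins-2 to ins-6 and ins-20 had it at 3, with a highest signal of 27.3. No pooled candidate was found at ins-21, ins-22 and ins-23 or at ins-7 and ins-8. No cluster held a thresholded summit in a window.

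The genes that make, release and receive these peptides were set beside them as 5 lists. Of the peptide processing genes, 3 of 10 had a candidate (30.0%, 6.67 to 65.2%, against 35.5% of all genes). The highest were pgal-1, which encodes an amidating lyase, at 39.8, and aex-5, which encodes a proprotein convertase, at 31.7. Among genes for making and releasing dense-core vesicles, 9 of 14 did (64.3%, 35.1 to 87.2%), with a median signal of 33.8. Both intervals include the 35.5% of all genes. This list held the one thresholded summit of the 5, at unc-108, which encodes the small GTPase RAB-2 that acts in dense-core vesicle maturation. The signal there was 79.6 (rank 434), 32 bp upstream of the start site, with rank 379 in replicate 4 and 6098 in replicate 5, so it was high in replicate 4 alone. Next was snt-3, a synaptotagmin gene, at 64.7 (rank 823).

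Of 106 peptide receptor genes, 25 had a candidate (23.6%, 15.9 to 32.8%), an interval that lies below the 35.5% of all protein-coding genes, and none was thresholded. Their highest signals were 46.0 at npr-23 and 41.1 at npr-13, and the median was 28.4. Receptor genes were taken by name, and intervals were not adjusted for the number of lists. Of the insulin receptor pathway, 6 of 12 genes had a candidate (50%, 21.1 to 78.9%, an interval that includes the share over all genes), with a median signal of 39.7 and none thresholded. The highest were age-1, the phosphoinositide 3-kinase gene, at 53.2 (rank 1579), and daf-16, the FOXO transcription factor gene, at 44.7. The receptor gene daf-2 had 37.3. Of 7 peptide genes under other names, pdf-1, which encodes pigment dispersing factor-like peptides, had 33.7 and daf-28 had 24.8, and the other 5 had no candidate.

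**Figure D5:**
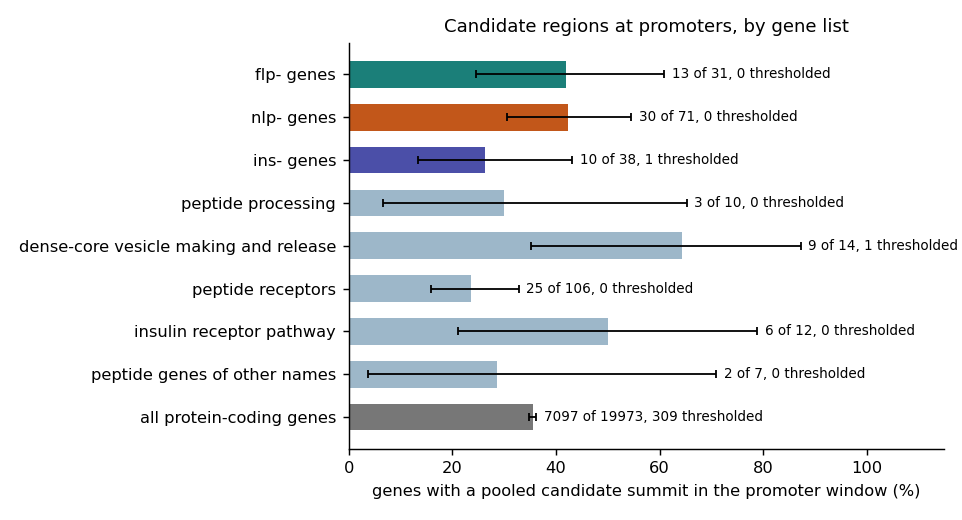
Share of genes with a pooled candidate summit in the promoter window (%), for the 3 peptide families, the 5 pathway lists and all protein-coding genes, with exact binomial 95% intervals. The families range from 26.3 to 42.3% around the 35.5% of all genes, and the peptide receptors, at 23.6%, have an interval below it.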

How the data were processed

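Per the labels, coordinates are on ce11. Per the file headers, each replicate's candidate list came from its own alignments and 1 control, the pooled list from both replicates, and the thresholded list from all 3 by the irreproducible discovery rate. Which aligner and peak caller were run is not given in the sources used here. The deposited signal and the deposited −log10 q of a region are the authors' values, and the lists give no depth.

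Regions were placed on WBcel235 with Ensembl release 115, using Python 3.11.15, pandas 2.3.3, numpy 2.4.6, scipy 1.17.1 and matplotlib 3.10.9. Sequences came from the RefSeq genome of that assembly. The thresholded regions were checked to be the strongest pooled ones. Assignment was tested on simulated data, where 200 of 200 regions placed in windows, and 0 of 200 outside, were assigned. No test between groups was made, since there is 1 group of 2 replicates.

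Genes were named when a thresholded summit lay in their window or nearest to their start site, when they were among the 8 highest signals of a family or in the top tier of a replicate, or, in the 5 lists, when thresholded or among the highest 2, with daf-28 added. Other names were chosen after their values were seen. The members, lists and 6-mers were chosen with earlier results of these data known. Alternatives changed the window, start sites, overlap, small RNA neighbours, repeated entries, thresholds and replicates.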

Additional observations from a re-analysis of the deposited data

How the results depend on the processing

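Of 36 alternatives to the 4 main results, 30 stayed within 1.5 times of the count or within the interval of the median. The number of peptide genes with a candidate was 38 of 140 with a window of 500 bp upstream (27.1%, against 25.6% of all genes) and 67 with 2000 bp (47.9%, against 50.9%), above the share over all genes in the shorter window and below it in the longer. It was 54 to 57 when the list of a single replicate was used. The number with a thresholded summit was 0 with 500 bp upstream, where ins-39 drops out, and 2 with 2000 bp, where nlp-76 joins it. Of all 19973 protein-coding genes it was 220 and 430. With 1 replicate left out, the top tier of the other took the place of the thresholded list. The number was then 2 without replicate 4, ins-39 and nlp-76, against 283 of the 19973 genes. Without replicate 5 it was 1, ins-39, against 303. The number in the top tier of both replicates was likewise 0 and 2 with those windows, against 102 and 226 of the 19973 genes. With the 3000 strongest of each replicate it was 2, where nlp-25 joins ins-39, against 520 of the 19973. Of 27 family counts, 26 stayed within 1.5 times. The ins- genes numbered 16 of 38 instead of 10 when a region had only to overlap the window by 1 bp. With that setting the count over all 19973 protein-coding genes also rose, from 7097 to 8728. No paired analysis was possible because there is 1 group and no comparison between groups. Unknown depth, 2 replicates and the small number of genes limit what can be told from these shares.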
